A study of Mus musculus with 36 samples.

Results

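The 9 genes described here, *Fkbp5*, *Tsc22d3*, *Sgk1*, *Zbtb16*, *Klf9*, *Ddit4*, *Cdkn1a*, *Mt1* and *Mt2*, are widely used as transcripts that glucocorticoid hormone raises. They were chosen by name, matched to Ensembl gene identifiers, and make up 9 of the 78239 genes counted in each library. RNA was sequenced from the kidney, heart and liver of wild-type male C57BL/6NCrl mice that were 8, 10 or 12 weeks old, with 4 libraries for each of the 9 tissue and age groups and 36 in all. No hormone, drug or diet was given as a treatment, and the groups are defined by tissue and age. All mice were bought at the same age and killed at different ages, so that age and time since arrival cannot be told apart. The mice were anaesthetised with ketamine and xylazine, bled, and killed by cervical dislocation before the organs were frozen. The time of day of collection is not given in the sources used here. Comparisons of ages ask how the genes changed in each organ over these weeks, and comparisons of tissues ask where the genes were high or low.

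Glucocorticoids (corticosterone in the mouse) leave the adrenal cortex in a daily rhythm and in response to stress. They bind the glucocorticoid receptor, which is held in the cytoplasm by chaperones, moves into the nucleus, and binds short palindromic DNA elements beside its target genes. Among these targets are genes that damp the hormone's own action, genes that slow growth and division, and genes that alter salt transport and fuel use. The kidney also responds to the related hormone aldosterone, and the enzyme HSD11B2 shields its distal tubule by inactivating glucocorticoids there.

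Each library held between 21031599 and 33637390 read pairs counted on genes. Levels are given as CPM, the read pairs on a gene relative to the library's total after scaling with TMM factors over all 36 libraries, and the 4 libraries of a group are named replicates 1 to 4. In whole organs, fewer cells that make a transcript and less of it per cell cannot be told apart. The tissue labels matched their markers: summed CPM of 8 tubule and podocyte genes lay between 8913 and 10135 in kidney, of 5 cardiomyocyte genes between 45732 and 62935 in heart, and of 5 hepatocyte genes between 89359 and 154174 in liver. Adrenal cortex markers, which would show adrenal gland taken along with the kidney, summed to at most 4.56 CPM in kidney, and *Cyp11b2*, *Cyp21a1* and *Nr5a1* were listed at 0 in all 12 kidney libraries. Whether these 0 values reflect absence or pairs lost in counting was not tested. White fat markers in kidney summed to between 0.0718 and 16.3 CPM at 8 weeks, 2.24 and 11.1 CPM at 10 weeks and 0.0614 and 7.65 CPM at 12 weeks. The part of white fat in the kidney results was not tested. Hepatocyte markers summed to at most 0.476 CPM in heart at 8 weeks, but reached 23.2 CPM at 10 weeks and 3.99 CPM at 12 weeks. In kidney these markers lay higher, between 69.2 and 138 CPM at 8 weeks, 81.6 and 142 CPM at 10 weeks and 114 and 169 CPM at 12 weeks.

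In the kidney, *Ddit4* fell between 8 and 12 weeks and was the sole member to pass the test among the 8 that could be tested (*Mt2* was below the count filter there). A change passed when edgeR's adjusted p was under 0.05, which 0.0567% of the 17649 kidney genes did in either direction and 0.017% did downward. Between 8 and 10 weeks 0 of 8 passed, against 0.929% of all genes, and between 10 and 12 weeks 0 of 8 passed, against 0.482%. At an unadjusted p under 0.05 edgeR counted 3 members in the first of these (all genes 16.5%) and 2 in the second (all genes 16.4%). DESeq2 passed 1 and 0, and limma-voom 1 and 0, and the gene that both tools passed between 8 and 10 weeks was *Ddit4*. Shares of all genes are from edgeR, here and below, and were not computed for DESeq2 or limma-voom. At 12 against 8 weeks 3 members had an unadjusted p under 0.05 by edgeR, all lower (all genes 11.7% in either direction). The median log2 fold change of the 8 members was -0.28 at 12 against 8 weeks, with 6 lower and 2 higher, beside 0.0025 over all kidney genes.

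Summed CPM of 6 B and plasma cell markers in the kidney rose in range from 3.40 to 5.31 at 8 weeks to 8.96 to 19.8 at 12 weeks, with *Igkc* listed at 0 at 8 and 10 weeks. In every heart and liver group, too, 1 of the 6 genes was listed at 0. Whether such a 0 reflects absence or pairs lost in counting was not tested. The part of these markers in the kidney results was not tested either.

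The heart showed 2 members lower at 12 than at 8 weeks, *Ddit4* and *Tsc22d3*, and none higher, of 8 tested. All heart genes passed at 4.56% in either direction and at 2.21% downward, so that many genes besides these changed in this comparison. Between 8 and 10 weeks 0 of 8 passed by edgeR, against 1.06% of all genes, with 4 members at an unadjusted p under 0.05 (all genes 15.8%), 1 passing by DESeq2 and 0 by limma-voom. From 10 to 12 weeks 0 of 8 passed, against 0.0396%, 0 had an unadjusted p under 0.05 (all genes 11.7%), and DESeq2 and limma-voom passed 0. At 12 against 8 weeks 4 members had an unadjusted p under 0.05 by edgeR, all lower (all genes 23.4% in either direction). The median of the 8 members at 12 against 8 weeks was -0.54, with 6 lower and 2 higher.

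In the liver *Sgk1* fell between 8 and 12 weeks and no other of the 9 members passed. All liver genes passed at 0.239% in either direction and at 0.0613% downward. At an unadjusted p under 0.05 edgeR counted 3 members lower and 1 higher in this comparison (all genes 15.1% in either direction). The median log2 fold change of the 9 members was -0.65, with 6 lower and 3 higher. Between 8 and 10 weeks 0 of 9 passed by edgeR, against 0.0204%, with 2 members at an unadjusted p under 0.05 (all genes 14.3%), 1 passing by DESeq2 and 0 by limma-voom. Between 10 and 12 weeks 0 of 9 passed by edgeR, against 0.0545%, with 2 members at an unadjusted p under 0.05 (all genes 14.1%), 1 passing by DESeq2 and 0 by limma-voom. Livers of one age varied more than kidneys or hearts did, with a common coefficient of variation over all genes of 0.206 against 0.113 and 0.118. The comparisons with 8 weeks share the 8-week libraries of each tissue.

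**Figure D1:**
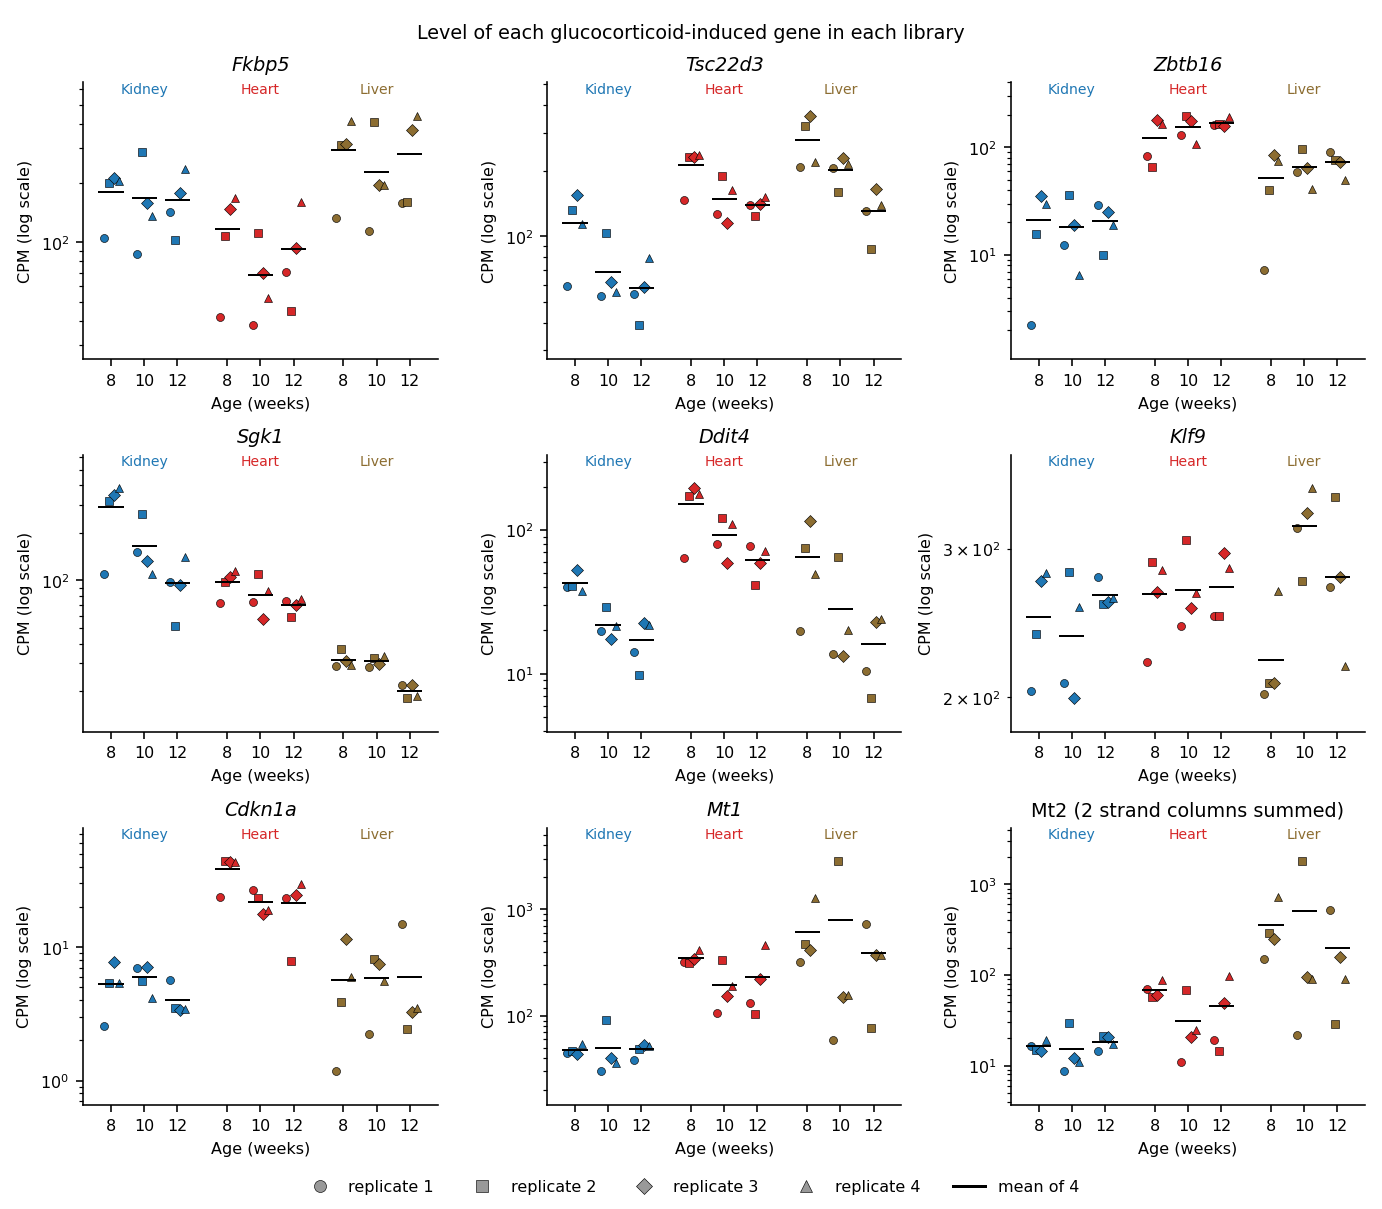
Level of each of the 9 genes in CPM on a log axis, in each of the 36 libraries, by age in weeks for kidney, heart and liver; marker shapes give the replicate and bars the mean of 4. *Klf9* lay within 1.75-fold in every tissue, while *Mt1* in liver ran over 47.7-fold. *Mt2* is drawn from the 2 strand columns summed.

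*Fkbp5* encodes FKBP51, a co-chaperone that lowers the hormone affinity of the glucocorticoid receptor and so closes a feedback loop (chromosome 17, 28618058 to 28737521, minus strand, GRCm39). In the kidney its level in replicates 1 to 4 was 106, 200.2, 212 and 205 CPM at 8 weeks, 86.9, 288, 159 and 136 CPM at 10 weeks, and 143, 103, 177 and 237 CPM at 12 weeks. The ages overlapped almost wholly, and the spread lay between animals of one age: replicate 1 was lowest at 8 and at 10 weeks, and replicate 2 was highest at 10 and lowest at 12 weeks. Kidney log2 fold changes were -0.11 ± 0.32 (adjusted p = 0.914) at 10 weeks and -0.15 ± 0.32 (adjusted p = 0.891) at 12 weeks against 8 weeks.

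Heart levels were 41.9, 107, 148 and 168 CPM at 8 weeks, 37.9, 112, 69.8 and 51.9 CPM at 10 weeks and 70.4, 45, 94 and 159 CPM at 12 weeks. Liver levels were 133, 311, 315 and 411 CPM at 8 weeks, 115, 406, 195 and 195 CPM at 10 weeks and 158, 159, 371 and 440.2 CPM at 12 weeks. The same numbers stood at the extremes in all 3 organs: replicate 1 was the lowest at 8 and at 10 weeks in each, replicate 2 the highest at 10 weeks, and replicate 4 the highest at 12 weeks. *Fkbp5* passed in no age comparison of heart or liver, with -0.34 ± 0.39 (adjusted p = 0.632) in heart and -0.06 ± 0.43 (adjusted p = 0.967) in liver at 12 against 8 weeks. At 10 against 8 weeks the values were larger in size, -0.77 ± 0.39 (adjusted p = 0.349) in heart and -0.38 ± 0.43 (adjusted p = 0.737) in liver. From highest to lowest mean the groups ran liver at 8 weeks (293 ± 116 CPM, SD, n = 4), 12 weeks (282 ± 145) and 10 weeks (228 ± 125), then kidney at 8, 10 and 12 weeks (181 ± 50.1, 167 ± 86.1 and 165 ± 56.8), then heart at 8, 12 and 10 weeks (116 ± 55.8, 92.2 ± 49 and 67.8 ± 32). Every pair of neighbours in that order overlapped.

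*Tsc22d3* encodes GILZ, a leucine zipper protein that carries part of the anti-inflammatory action of glucocorticoids (chromosome X, 139440091 to 139501408, minus strand). Kidney levels were 59.2, 132, 154 and 114 CPM at 8 weeks, 53.4, 103, 61.8 and 55.5 CPM at 10 weeks and 54.3, 39, 58.4 and 79.1 CPM at 12 weeks. Replicates 2, 3 and 4 at 8 weeks stood above all other kidney libraries, and replicate 1 at 8 weeks lay among the older animals. The log2 fold change at 12 against 8 weeks was -1.01 ± 0.27 (adjusted p = 0.216) in kidney, and it did not pass.

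In the heart *Tsc22d3* stood at 147, 233, 232 and 238 CPM at 8 weeks, 126, 190.4, 116 and 163 CPM at 10 weeks and 139.7, 123, 141 and 152 CPM at 12 weeks. It fell by 12 weeks, with a log2 fold change of -0.61 ± 0.15 (adjusted p = 0.0348), although replicate 1 at 8 weeks overlapped the 12-week range. This call was lost without 8-week replicate 2, 3 or 4 or 12-week replicate 1, 2 or 3, where the adjusted p lay between 0.0783 and 0.0961. At 10 against 8 weeks the heart value was -0.50 ± 0.15 (adjusted p = 0.122), and it passed without 8-week replicate 1 (adjusted p = 0.0207) or 10-week replicate 2 (0.0266).

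Liver levels of *Tsc22d3* were 208, 322, 359.6 and 221 CPM at 8 weeks, 206, 159, 230.0 and 214 CPM at 10 weeks and 131, 87.7, 166 and 139.9 CPM at 12 weeks. All 4 livers at 12 weeks lay below all 4 at 8 weeks, one of 2 members with no overlap downward in that comparison, against 3.01% of all liver genes. Its log2 fold change was -1.09 ± 0.21 (adjusted p = 0.0544) by edgeR, just short of passing, and it passed by DESeq2 (adjusted p = 0.000247) or without liver 10-week replicate 2 (adjusted p = 0.0398). Mean levels ran from liver at 8 weeks (277 ± 74.8 CPM) and heart at 8 weeks (212 ± 43.5) down to kidney at 10 and 12 weeks (68.4 ± 23.4 and 57.7 ± 16.5), each group overlapping the next.

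*Sgk1* encodes a serine and threonine kinase that both glucocorticoids and aldosterone induce, and that raises sodium uptake in the distal tubule through the epithelial sodium channel (chromosome 10, 21758083 to 21875802, plus strand). One of its 6 RefSeq promoter windows holds a complete palindrome of the receptor's binding element, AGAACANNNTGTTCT, whose first base lies 189 bases before the start site. The 250 bases before that start site (chr10:21869539-21869788, plus strand, RefSeq windows matched exactly to GRCm39) are shown with the palindrome in capitals.
Sgk1: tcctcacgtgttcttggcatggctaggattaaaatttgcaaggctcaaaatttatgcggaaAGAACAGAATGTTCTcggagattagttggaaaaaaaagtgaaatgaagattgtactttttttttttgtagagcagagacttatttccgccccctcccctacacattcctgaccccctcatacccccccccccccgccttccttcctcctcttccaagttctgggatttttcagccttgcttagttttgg
Of the 32851 promoter windows of 300 bases in the RefSeq table, 3 held this palindrome on either strand (0.00913%), and 156 (0.475%) held the looser GNACANNNTGTNC, which contains every full palindrome. Among the 16 windows of the 8 members that had one, only the *Sgk1* window held the full palindrome, and the looser one was found there and at *Mt1*. One arm of the palindrome, AGAACA, was found in windows of *Sgk1* and *Tsc22d3* and in 19% of all windows, and *Zbtb16* had no window. A match is a description of letters in these windows, and the receptor binds many of its targets at elements farther away.

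Kidney levels of *Sgk1* were 109.9, 316, 347 and 380.3 CPM at 8 weeks, 152, 262, 133 and 110.3 CPM at 10 weeks and 98.4, 51.9, 93.8 and 141 CPM at 12 weeks. Replicates 2, 3 and 4 at 8 weeks were the highest of all 36 libraries, replicate 1 at 8 weeks lay near the 12-week kidneys, and replicate 2 was the highest at 10 weeks and the lowest at 12 weeks. The mean at 8 weeks was 288 ± 122 CPM and at 12 weeks 96.3 ± 36.4 CPM (SD, n = 4), the log2 fold change being -1.60 ± 0.37 (adjusted p = 0.154). That difference did not pass by edgeR or limma-voom, while DESeq2 passed it (adjusted p = 0.018).

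Heart levels of *Sgk1* were 71.9, 97.2, 106 and 115 CPM at 8 weeks, 72.8, 109.8, 57.5 and 85.9 CPM at 10 weeks and 74.1, 58.6, 70.3 and 76.4 CPM at 12 weeks, with a log2 fold change of -0.47 ± 0.16 (adjusted p = 0.0933) at 12 against 8 weeks. The heart difference passed by DESeq2 (adjusted p = 0.042) and without 8-week replicate 1 (adjusted p = 0.0355). In the liver the kinase was low and narrow in range, with 28.8, 37.2, 31 and 29.3 CPM at 8 weeks, 28.3, 32.6, 29.6 and 33.2 CPM at 10 weeks and 21.9, 18.1, 22 and 18.7 CPM at 12 weeks. The 4 livers at 12 weeks lay below all 8 younger livers, and 1 member had no overlap downward between 12 and 10 weeks against 4.72% of all genes. *Sgk1* fell by 12 weeks, with a log2 fold change of -0.65 ± 0.11 (adjusted p = 0.0312) against 8 weeks, and stood at -0.60 ± 0.11 (adjusted p = 0.0613) against 10 weeks.

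The liver call was lost without 8-week replicate 2 or 3, 10-week replicate 1 or 4, or 12-week replicate 1, 2 or 3 (adjusted p between 0.0505 and 0.117). The difference from 10 weeks passed without 8-week replicate 2 or 4 (0.0464 and 0.0299) and by DESeq2 (0.000347). By group mean *Sgk1* ran from kidney at 8 weeks and 10 weeks (164 ± 67.5 CPM) through heart at 8 weeks (97.5 ± 18.5) and kidney at 12 weeks to heart at 10 and 12 weeks (81.5 ± 22.2 and 69.9 ± 7.91), all overlapping their neighbours. A gap without overlap separated these from liver at 8 and 10 weeks (31.6 ± 3.88 and 30.9 ± 2.33), and another separated those from liver at 12 weeks (20.2 ± 2.07).

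*Zbtb16* encodes PLZF, a zinc finger repressor that hormone induces strongly in many cell types (chromosome 9, 48563141 to 48748664, minus strand). It was the most variable of the 8 members with reliable counts in kidney, where the highest library stood 16.1-fold above the lowest. Kidney levels were 2.21, 15.7, 35.6 and 30.0 CPM at 8 weeks, 12.2, 35.6, 18.8 and 6.51 CPM at 10 weeks and 28.9, 9.91, 24.8 and 19 CPM at 12 weeks. Replicate 1 at 8 weeks was the lowest kidney, and the next lowest was replicate 4 at 10 weeks.

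Heart levels were the highest of the 3 tissues, at 82.9, 66.2, 179 and 163 CPM at 8 weeks, 130.0, 197, 176 and 108 CPM at 10 weeks and 161, 164, 156 and 190.4 CPM at 12 weeks. Liver levels of *Zbtb16* were 7.22, 40.5, 85.4 and 74.9 CPM at 8 weeks, 59.1, 96, 64.8 and 41 CPM at 10 weeks and 91.3, 75.9, 72.6 and 49.5 CPM at 12 weeks. Replicate 1 at 8 weeks was again the lowest liver. No age comparison of *Zbtb16* passed, with -0.048 ± 0.59 (adjusted p = 0.989) in kidney, 0.45 ± 0.25 (adjusted p = 0.28) in heart and 0.48 ± 0.51 (adjusted p = 0.703) in liver at 12 against 8 weeks. The 3 heart groups (168 ± 15.3, 153 ± 40.9 and 123 ± 56.5 CPM at 12, 10 and 8 weeks) came first in order of means, the 3 liver groups next (72.3 ± 17.3, 65.2 ± 22.9 and 52 ± 35.5), and the 3 kidney groups last (20.9 ± 15 at 8 weeks, 20.6 ± 8.23 at 12 weeks and 18.3 ± 12.6 at 10 weeks), all neighbours overlapping.

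*Klf9* encodes a Krüppel-like factor that responds to glucocorticoid and thyroid hormone and to the clock (chromosome 19, 23118187 to 23148497, plus strand). It was the steadiest member, the highest library standing 1.41-fold above the lowest in kidney, 1.4-fold in heart and 1.75-fold in liver. Kidney levels were 203, 237, 274 and 280.4 CPM at 8 weeks, 208, 281, 199 and 256 CPM at 10 weeks and 278, 258, 259 and 262 CPM at 12 weeks, and the largest kidney difference was 0.14 ± 0.11 (adjusted p = 0.561) between 12 and 10 weeks. In the heart it stood at 220.2, 289, 267 and 283 CPM at 8 weeks, 243, 307, 255 and 266 CPM at 10 weeks and 249.6, 249.5, 296 and 285 CPM at 12 weeks, with its largest age difference 0.035 ± 0.10 (adjusted p = 0.862). Liver levels were 202, 208, 208 and 268 CPM at 8 weeks, 318, 275, 331 and 354 CPM at 10 weeks and 270.0, 346, 278 and 218 CPM at 12 weeks. All 4 livers at 10 weeks lay above all 4 at 8 weeks, the 1 member with no overlap upward in this comparison against 5.64% of all liver genes. The log2 fold change was 0.51 ± 0.13 (adjusted p = 0.148) by edgeR, which did not pass, and the adjusted p was 0.03 by DESeq2, which did. Means ran from liver at 10 weeks (319 ± 33 CPM) to liver at 8 weeks (221 ± 30.9), with the other 7 groups between them and every neighbour overlapping.

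*Ddit4* encodes REDD1, an inhibitor of the growth kinase complex mTORC1 that hormone, low oxygen and DNA damage raise (chromosome 10, 59785491 to 59788492, minus strand). In the kidney it stood at 40.3, 41, 52.9 and 37.7 CPM at 8 weeks, 19.8, 29.1, 17.4 and 21.5 CPM at 10 weeks and 14.1, 9.86, 22.4 and 22 CPM at 12 weeks. All 4 kidneys at 8 weeks lay above all 8 older ones, replicate 1 included. *Ddit4* was the 1 member with no overlap downward at 12 against 8 weeks and also the 1 at 10 against 8 weeks, where 2.88% and 4.36% of all kidney genes did the same. The mean went from 43 ± 6.77 CPM at 8 weeks to 21.9 ± 5.08 at 10 weeks and 17.1 ± 6.15 at 12 weeks (SD, n = 4). The log2 fold change was -1.36 ± 0.22 (adjusted p = 0.0469) at 12 against 8 weeks, which passed, and -0.97 ± 0.22 (adjusted p = 0.0521) at 10 against 8 weeks, which did not.

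The kidney call at 12 weeks stood close to the threshold. It was lost without any of the 4 libraries at 8 weeks, without 10-week replicate 1 or 4, and without 12-week replicate 1 or 2 (adjusted p between 0.0535 and 0.167), and also when only the 2 ages were fitted (0.0765). Conversely, the difference at 10 weeks passed without 10-week replicate 2 or 12-week replicate 2 or 4 (0.0282 to 0.0487), by DESeq2 (0.0119), by limma-voom (0.0399) and with 2 ages fitted (0.0245).

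Heart levels of *Ddit4* were 64, 172, 195 and 178 CPM at 8 weeks, 79.8, 122, 59.3 and 109.7 CPM at 10 weeks and 77.1, 41.2, 58.8 and 71 CPM at 12 weeks. It fell in the heart as well, with a log2 fold change of -1.29 ± 0.28 (adjusted p = 0.0204) at 12 against 8 weeks, replicate 1 at 8 weeks overlapping the 12-week range. Without 8-week replicate 2, 3 or 4 or 12-week replicate 2 or 3 the adjusted p lay between 0.0532 and 0.0650. At 10 against 8 weeks the heart value was -0.71 ± 0.28 (adjusted p = 0.225), which passed without 8-week replicate 1 (0.0248).

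In the liver *Ddit4* stood at 19.7, 75, 116 and 49.3 CPM at 8 weeks, 13.7, 65.2, 13.3 and 20.01 CPM at 10 weeks and 10.4, 6.75, 22.8 and 23.9 CPM at 12 weeks. Its liver log2 fold change at 12 against 8 weeks was larger in size than any age difference of the other members with reliable counts, -2.03 ± 0.62 (adjusted p = 0.171), and did not pass, its standard error also being large and replicate 1 at 8 weeks overlapping the older livers. Group means fell in order from heart at 8 weeks (152 ± 59.6 CPM) and 10 weeks (92.6 ± 28.4) through liver at 8 weeks (64.9 ± 40.7) and heart at 12 weeks (62 ± 15.8) to kidney at 8 weeks, liver at 10 weeks (28.1 ± 24.9), kidney at 10 and 12 weeks and liver at 12 weeks (16 ± 8.68), with every neighbour overlapping.

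*Cdkn1a* encodes p21, an inhibitor of cyclin-dependent kinases that p53 also induces (chromosome 17, 29309936 to 29319701, plus strand). Some of its reads were lost in counting, as described below for strand. Kidney levels were low, 2.58, 5.39, 7.75 and 5.38 CPM at 8 weeks, 6.95, 5.59, 7.05 and 4.12 CPM at 10 weeks and 5.69, 3.52, 3.37 and 3.45 CPM at 12 weeks, and the largest kidney difference was -0.59 ± 0.27 (adjusted p = 0.303) between 12 and 10 weeks. Heart levels were higher, 23.7, 44, 43.5 and 43.1 CPM at 8 weeks, 26.6, 23.3, 17.8 and 18.9 CPM at 10 weeks and 23.1, 7.9, 24.8 and 29.5 CPM at 12 weeks. Replicates 2, 3 and 4 at 8 weeks stood above all other hearts, and 12-week replicate 2 was the lowest. The heart log2 fold changes, -0.82 ± 0.27 (adjusted p = 0.152) at 10 weeks and -0.85 ± 0.27 (adjusted p = 0.0736) at 12 weeks, did not pass by edgeR on the unstranded counts. With first strand counts the difference at 12 weeks passed (0.0295), and with only 2 ages fitted that at 10 weeks did (0.0496). Without 12-week replicate 2 the difference at 10 weeks passed (0.0273), and without 8-week replicate 1 (0.0317) or 12-week replicate 4 (0.0344) the difference at 12 weeks did. Liver levels were 1.18, 3.91, 11.5 and 5.94 CPM at 8 weeks, 2.25, 8.16, 7.49 and 5.56 CPM at 10 weeks and 14.9, 2.45, 3.24 and 3.48 CPM at 12 weeks, with no order by age. The 3 heart groups led the order of means (38.6 ± 9.9, 21.7 ± 4.04 and 21.3 ± 9.34 CPM at 8, 10 and 12 weeks), and the 6 kidney and liver groups lay between 4.01 ± 1.12 and 6.01 ± 5.92 CPM, neighbours overlapping throughout.

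*Mt1* and *Mt2* encode metallothioneins, small cysteine-rich proteins that bind zinc and copper, and they stand side by side on chromosome 8 (*Mt1* at 94905710 to 94906955 and *Mt2* at 94898819 to 94900207, both plus strand). Zinc induces them through the factor MTF1, which binds metal response elements with the core TGCGCNC or TGCACNC. The 250 bases before each start site (chr8:94905467-94905716 and chr8:94898996-94899245, plus strand, RefSeq windows matched exactly to GRCm39) are shown because the 2 genes varied together, with both kinds of metal element and the looser receptor palindrome in capitals, on either strand.
Mt1: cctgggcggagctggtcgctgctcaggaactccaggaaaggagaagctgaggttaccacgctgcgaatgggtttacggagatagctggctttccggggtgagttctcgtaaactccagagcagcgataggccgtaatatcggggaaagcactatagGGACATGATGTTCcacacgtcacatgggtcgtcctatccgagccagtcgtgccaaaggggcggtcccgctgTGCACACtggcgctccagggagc
Mt2: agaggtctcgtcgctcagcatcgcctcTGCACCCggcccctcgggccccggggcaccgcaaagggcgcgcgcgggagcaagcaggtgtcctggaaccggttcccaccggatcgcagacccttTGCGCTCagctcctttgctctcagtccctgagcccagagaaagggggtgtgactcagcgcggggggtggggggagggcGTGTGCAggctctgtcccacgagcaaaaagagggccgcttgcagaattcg
Over the whole 300 bases, which run 50 bases past the start, *Mt1* held 1 TGCGCNC and 2 TGCACNC and *Mt2* held 2 of each. At least 1 TGCGCNC was present in 15.4% and at least 1 TGCACNC in 12.6% of all windows. Among the other members, windows of *Sgk1* and *Ddit4* also held TGCGCNC. The letters GGACATGATGTTC before *Mt1* begin 94 bases before its start site.

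Kidney levels of *Mt1* were 44.8, 46.1, 43.3 and 54.7 CPM at 8 weeks, 30.1, 92, 39.9 and 35.8 CPM at 10 weeks and 37.9, 48.9, 53.4 and 52.2 CPM at 12 weeks, replicate 2 at 10 weeks standing apart above the rest. Heart levels were 321, 312, 339 and 417 CPM at 8 weeks, 107, 331, 152 and 192 CPM at 10 weeks and 132, 104, 220.2 and 459 CPM at 12 weeks. In the liver they were 318, 473, 415 and 1266 CPM at 8 weeks, 59.4, 2835, 151 and 157 CPM at 10 weeks and 732, 76.3, 371 and 376 CPM at 12 weeks. The liver thus held both the highest level of the gene in all 36 libraries and, in replicate 1 of the same age, one below every heart. No age comparison of *Mt1* passed with all libraries, the values at 12 against 8 weeks being 0.0047 ± 0.26 (adjusted p = 0.998) in kidney, -0.61 ± 0.36 (adjusted p = 0.317) in heart and -0.66 ± 1.01 (adjusted p = 0.805) in liver. The heart difference passed without 12-week replicate 4 (-1.18, adjusted p = 0.0238). Means were highest in liver at 10 weeks (801 ± 1357 CPM), 8 weeks (618 ± 437) and 12 weeks (389 ± 268), then in heart at 8, 12 and 10 weeks (347 ± 48, 229 ± 161 and 195 ± 96.6), all overlapping their neighbours. The kidney groups (49.5 ± 28.6, 48.1 ± 7.07 and 47.2 ± 5.1 at 10, 12 and 8 weeks) lay below every heart library, while the highest kidney (92.0 CPM) stood above 2 livers (59.4 and 76.3 CPM).

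*Mt2* was nearly absent from the counts made without regard to strand. A non-coding gene on the opposite strand, *Gm45774*, shares 783 of the 950 exon bases of *Mt2*, and a read pair that overlaps 2 genes is given to neither. In kidney 14 pairs remained of the 8606 in the 2 strand columns (0.163%), in heart 42 of 16709 (0.251%) and in liver 429 of 113006 (0.380%). *Cdkn1a*, which overlaps the opposite-strand genes *Dino* and *Gm64878*, kept 82.1% in kidney, 77.9% in heart and 75.6% in liver. The other 7 members kept at least 97.3% in each tissue. Summing the strand columns, a choice made after seeing the data, recovers the pairs, but each pair on the shared bases is then counted for both genes and cannot be assigned to *Mt2* or *Gm45774*.

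**Figure D2:**
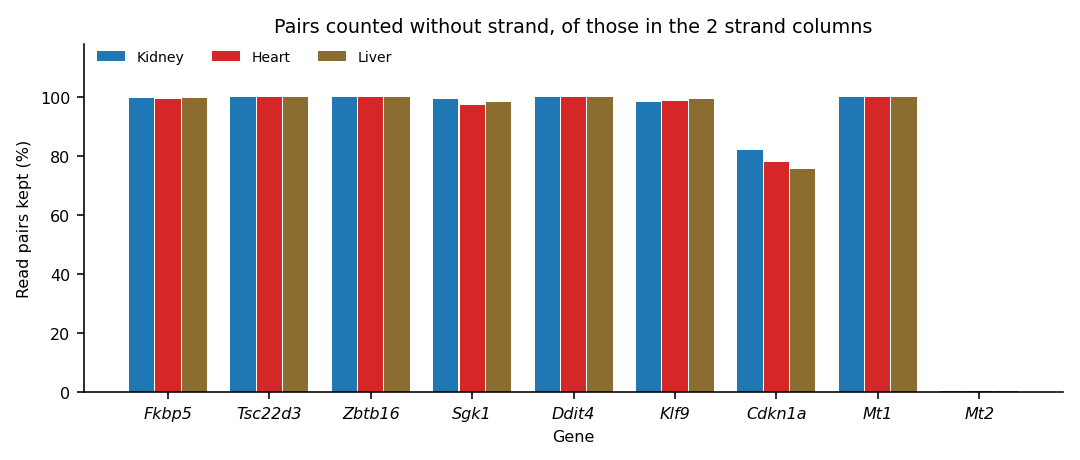
Share of read pairs, in percent, that each gene kept in the counts without regard to strand, of those in the 2 strand columns summed, over the 12 libraries of each tissue. *Mt2* kept under 1% in all 3 tissues and *Cdkn1a* 75.6% to 82.1%, and the other 7 bars stand at 97.3% or more.

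From the summed columns, kidney levels of *Mt2* were 16.5, 14.9, 14.6 and 19.2 CPM at 8 weeks, 8.69, 29.7, 12.1 and 10.9 CPM at 10 weeks and 14.4, 21, 20.5 and 17.2 CPM at 12 weeks. Heart levels were 70.3, 57.5, 59.4 and 87.9 CPM, 11, 69, 20.7 and 24.9 CPM and 19.2, 14.5, 49.6 and 96.4 CPM at these ages, and liver levels 149, 290.2, 248 and 730.3 CPM, 21.9, 1799, 96 and 90.7 CPM and 525, 29, 159 and 89.5 CPM. The libraries that were high and low in *Mt1* were high and low in *Mt2*, replicate 2 at 10 weeks above all. In these columns *Mt2* passed in none of the 9 age comparisons, the largest being -1.33 ± 1.14 (adjusted p = 0.652) in liver at 12 against 10 weeks, and the lowest unadjusted p being 0.0377 in heart at 10 against 8 weeks (-1.14 ± 0.51 (adjusted p = 0.303)).

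**Figure D3:**
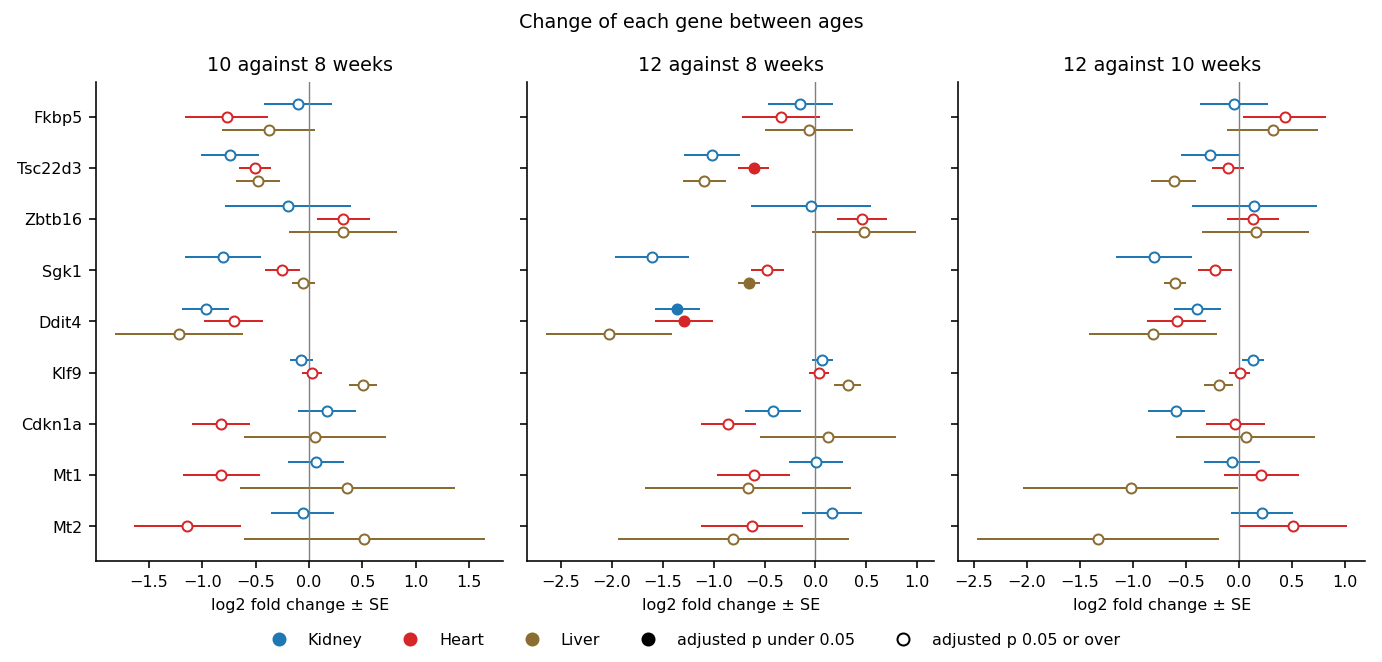
Log2 fold change of each gene between ages (points) with its standard error (bars) in kidney, heart and liver, with filled points where edgeR's adjusted p was under 0.05. At 12 against 8 weeks 4 points are filled, *Ddit4* in kidney and heart, *Tsc22d3* in heart and *Sgk1* in liver, all below 0. *Mt2* is drawn from the 2 strand columns summed.

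Each member's change with age was set against its change in another tissue, in 6 comparisons of changes. Of these 54 tests 0 passed by edgeR, against 0.987% of all genes tested, and DESeq2 and limma-voom also passed 0. At an unadjusted p under 0.05 there were 6, against 12.1%, of which *Sgk1* gave 3 and *Klf9* 2. At 12 against 8 weeks the change of *Sgk1* in kidney set against that in heart gave a log2 difference of -1.14 ± 0.38 (adjusted p = 0.235), and set against that in liver -0.96 ± 0.38 (adjusted p = 0.3004). Thus the passing of *Ddit4* in kidney and heart and of *Sgk1* in liver alone does not show that these changes differed between the organs.

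Averaged over ages, 7 of 9 members (*Mt2* in the counts without regard to strand) differed between each pair of tissues, where 86.1% of all 19716 genes differed between kidney and heart, 83.1% between kidney and liver and 84.2% between heart and liver. The members' share was thus near that of all genes. In kidney against heart 2 were higher (all genes 47.1%) and 5 lower (all genes 39%). In kidney against liver 1 was higher (all genes 46%) and 6 were lower (37%), and in heart against liver 4 were higher (42%) and 3 lower (42.2%). TMM factors lay between 1.25 and 1.42 in kidney, 0.892 and 0.987 in heart and 0.737 and 0.833 in liver, so that without them kidney values shift upward by a median of 0.53 against heart and 0.80 against liver on the log2 scale, and heart values by 0.27 against liver.

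The kidney stood out for *Sgk1*, which was higher there than in heart by 0.98 ± 0.15 (adjusted p = 5.64e-07) and than in liver by 2.56 ± 0.16 (adjusted p = 3.85e-16) on the log2 scale. *Fkbp5* was higher in kidney than in heart, 0.90 ± 0.26 (adjusted p = 0.00178), and lower than in liver, -0.69 ± 0.25 (adjusted p = 0.0134), a sign that turned to 0.11 (adjusted p = 0.678) without scaling factors. *Tsc22d3* was lower in kidney than in heart, -1.12 ± 0.14 (adjusted p = 7.26e-09), and in liver, -1.39 ± 0.14 (adjusted p = 7.47e-11). The repressor gene *Zbtb16* was lower in kidney than in heart, at -2.91 ± 0.32 (adjusted p = 4.85e-10) and than in liver, at -1.70 ± 0.31 (adjusted p = 8.91e-06). *Ddit4* and *Cdkn1a*, which both restrain growth, were lower in kidney than in heart, at -1.95 ± 0.26 (adjusted p = 2.28e-08) and -2.40 ± 0.27 (adjusted p = 5.98e-10), and did not pass between kidney and liver, at -0.34 ± 0.26 (adjusted p = 0.226) and -0.26 ± 0.28 (adjusted p = 0.388).

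*Mt1* was lower in kidney than in heart, -2.40 ± 0.43 (adjusted p = 4.9e-06), and in liver, -3.63 ± 0.45 (adjusted p = 5.77e-09). It was also lower in heart than in liver, -1.23 ± 0.41 (adjusted p = 0.00658), but this call was lost without liver 10-week replicate 2 (log2 difference -0.33, adjusted p = 0.271) and by limma-voom (-0.62, adjusted p = 0.15). *Mt2* in the summed strand columns, by which 8 of 9 members passed between kidney and heart, was lower in kidney than in heart at -1.49 ± 0.49 (adjusted p = 0.00569), lower in kidney than in liver at -4.34 ± 0.54, and lower in heart than in liver at -2.85 ± 0.50. The log2 difference of *Klf9* was -0.13 ± 0.072 (adjusted p = 0.0897) in kidney against heart and -0.032 ± 0.072 (adjusted p = 0.697) in heart against liver, neither passing. Its difference between kidney and liver, -0.16 ± 0.072 (adjusted p = 0.037), passed, but it was lost without any of 8 of the 36 libraries (kidney 8-week replicates 1 and 2 and 10-week replicates 1 and 3, liver 8-week replicate 4, 10-week replicates 3 and 4 and 12-week replicate 2; adjusted p between 0.0558 and 0.104). It was lost as well by DESeq2 (0.0652), with RLE factors (0.0678), with no filter (0.154), with first strand counts (0.142), with the strand columns summed (0.0818) and without the 3 libraries numbered 1 (0.0533), and it turned to 0.63 (adjusted p = 2.82e-10) without scaling factors, a setting under which *Klf9* was also higher in kidney than in heart (0.40, adjusted p = 2.87e-06) and in heart than in liver (0.23, adjusted p = 0.00238).

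In heart against liver, *Sgk1* (1.58 ± 0.16 (adjusted p = 4.79e-11)), *Zbtb16* (1.21 ± 0.31 (adjusted p = 0.000514)), *Ddit4* (1.62 ± 0.26 (adjusted p = 8.11e-07)) and *Cdkn1a* (2.14 ± 0.27 (adjusted p = 1.02e-08)) were higher in heart. *Fkbp5* was higher in liver, -1.58 ± 0.26 (adjusted p = 1.19e-06), and *Tsc22d3* did not pass, -0.27 ± 0.14 (adjusted p = 0.0742).

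Levels of different genes can be set side by side only per length, here as CPM per kb of all exon bases of a gene, and as a median over 12 libraries. This length joins the exons of every annotated transcript, so that the order of genes depends on the annotation. On that scale in kidney *Mt1* stood at 36.5, *Klf9* at 31.5, *Sgk1* at 22.7, *Fkbp5* at 15.2, *Tsc22d3* at 9.77, *Ddit4* at 8.17, *Zbtb16* at 2.01 and *Cdkn1a* at 0.891. *Sgk1* was thus the third of 8 in kidney over all ages. By mean per age it stood first at 8 weeks, at 48 against 37.9 for *Mt1* and 30.3 for *Klf9*, and came after these 2 at 10 and 12 weeks, at 27.3 and 16. In heart it was the sixth over all ages, at 12.5 CPM per kb, between *Zbtb16* at 17.3 and *Fkbp5* at 7.43, and in liver the seventh, at 4.83, between *Zbtb16* at 7.31 and *Cdkn1a* at 0.784. *Mt1* led in heart and liver too, at 214 and 299.8.

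The members varied between animals of one age, and they often did so together. Among the 8 members without *Mt2*, replicate 1 at 8 weeks was the lowest of its group for 6 in kidney, 6 in heart and 8 in liver. Replicate 2 at 10 weeks was the highest of its group for 7 in kidney, 7 in heart and 5 in liver, and replicate 2 at 12 weeks was the lowest for 6, 7 and 5. How many of all genes stood at the same extremes was not counted. The labels give the libraries of the 3 tissues the same numbers but do not say that a number marks one animal.

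For each gene, the deviation of log2 CPM from the age mean was therefore correlated between same-numbered libraries of 2 tissues, with exact permutation within ages (two-sided, smallest possible p = 7.23e-05) and adjustment over the 27 relations computed. *Fkbp5* followed the number closely, with r = 0.944 and rho = 0.958 between kidney and heart over 12 numbers (permutation p = 0.000145 for both, adjusted 0.00195), and all 12 numbers deviated to the same side. Between kidney and liver r was 0.948 and rho 0.965 (permutation p = 0.000362 and 0.000362, adjusted 0.00326 for r), and between heart and liver 0.935 and 0.965 (permutation p = 7.23e-05 for both, adjusted 0.00195), each with 11 of 12 on the same side. Without the 2 libraries farthest from the median r was 0.932, 0.915 and 0.911 in that order.

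*Zbtb16* followed between kidney and liver, with r = 0.925 and rho = 0.874 (permutation p = 0.00217, adjusted 0.0117, r = 0.785 without the 2 farthest), and *Sgk1* between kidney and heart, with r = 0.77 and rho = 0.762 (permutation p = 0.00817, adjusted 0.0315, r = 0.616 without the 2 farthest). *Ddit4* passed by r but not by rho between kidney and liver (r = 0.802, permutation p = 0.00159, adjusted 0.0107; rho = 0.727, adjusted 0.07). The same held for *Ddit4* between heart and liver (r = 0.776, permutation p = 0.00796, adjusted 0.0315; rho = 0.755, adjusted 0.07) and for *Tsc22d3* between kidney and heart (r = 0.806, permutation p = 0.0101, adjusted 0.0342; rho = 0.685, adjusted 0.0859).

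In all, 8 of 27 relations passed by r, 5 of them also by rho, and 25 of 27 were positive, with a median r of 0.634. When every relation was computed without its 2 farthest libraries 2 passed, *Fkbp5* between kidney and heart and between heart and liver (adjusted p = 0.0312 for both), so that the other 6 rested in part on those libraries or on the larger number. *Klf9* between heart and liver had the lowest r, -0.24. *Mt2* in the summed strand columns passed in none, with r of 0.613, 0.643 and 0.572. Genes other than the members were not tested singly in this way. Over all other genes tested in both tissues, deviations of same-numbered libraries had r between 0.0307 and 0.170 for kidney and heart. For kidney and liver these r lay between 0.0597 and 0.255, and for heart and liver between -0.00655 and 0.154. Among the hearts, hepatocyte markers were highest at 10 weeks, at up to 23.2 CPM against 89359 CPM or more in liver of that age. In kidney these markers reached 138 CPM at 8 weeks, 142 CPM at 10 weeks and 169 CPM at 12 weeks. Their part in these correlations was not tested.

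**Figure D4:**
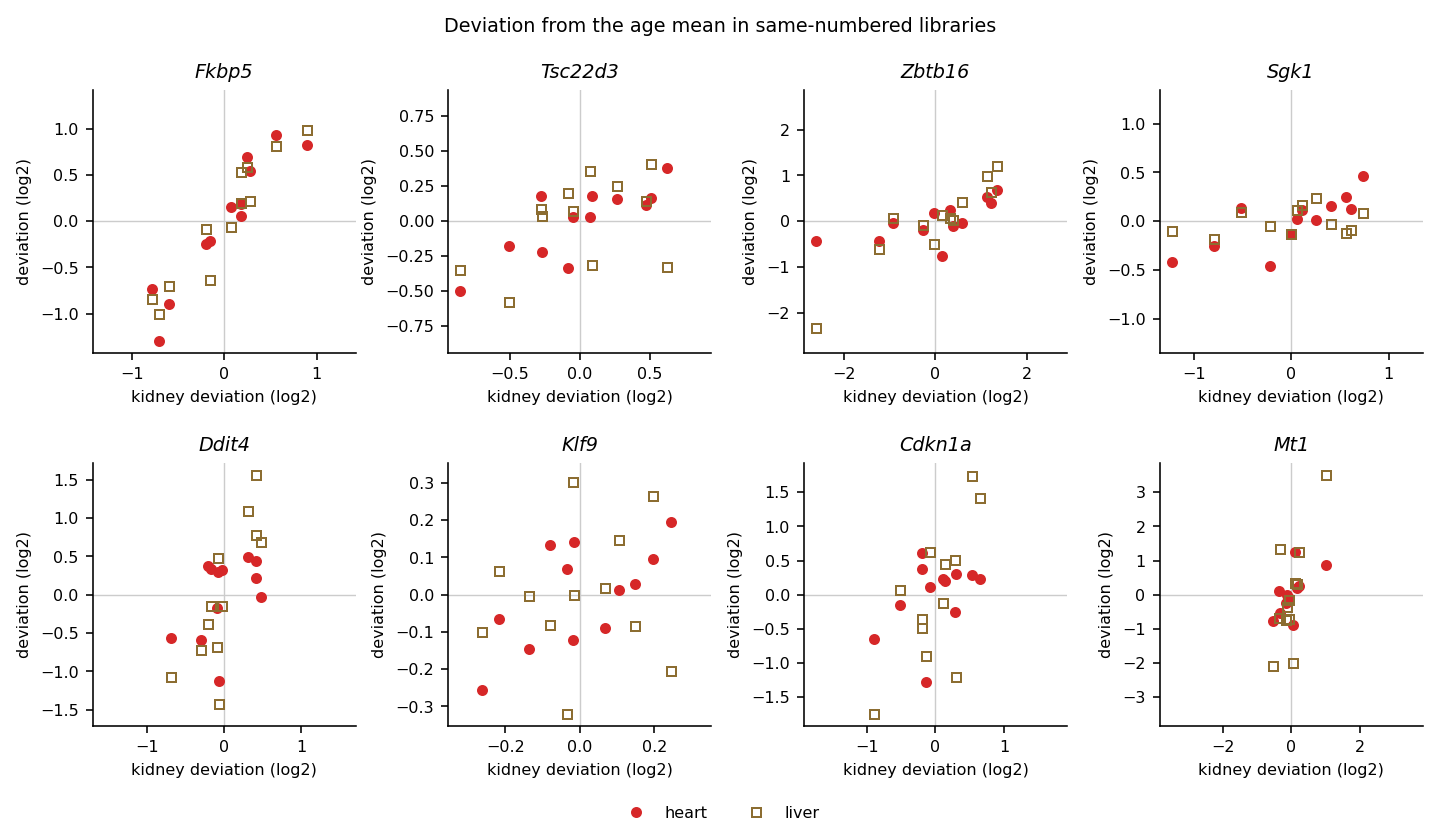
Deviation of each gene from its age mean (log2) in 12 kidney libraries (horizontal axis) against the same-numbered heart (filled circles) or liver (open squares) library (vertical axis). For *Fkbp5* all 12 heart points and 11 of 12 liver points fall on the same side of 0 as the kidney point.

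Within a tissue, 36 pairs of members were compared in the same way over the 12 libraries of each organ, 108 relations in all, with adjustment over these. Members of one library share its scaling factor. By r 6 passed and 97 were positive, with a median r of 0.50 in kidney, 0.58 in heart and 0.40 in liver. Pairs of other genes were not compared in this way. In kidney *Fkbp5* and *Tsc22d3*, the feedback and anti-inflammatory genes, varied together (r = 0.908, rho = 0.923, permutation p = 0.000434, adjusted 0.0117, r = 0.929 without the 2 farthest). *Tsc22d3* and *Sgk1* had a higher r in kidney, 0.934, that did not pass (rho = 0.951, permutation p = 0.00354, adjusted 0.0547).

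In heart *Tsc22d3*, *Sgk1* and *Ddit4* moved together in all 3 pairs, with r = 0.951 and rho = 0.937 (permutation p = 7.23e-05, adjusted 0.00781), r = 0.936 and rho = 0.867 (permutation p = 0.00123, adjusted 0.0266) and r = 0.903 and rho = 0.895 (permutation p = 0.000434, adjusted 0.0117) for *Tsc22d3* with *Sgk1*, *Tsc22d3* with *Ddit4* and *Ddit4* with *Sgk1*. *Fkbp5* and *Mt1* also passed in heart (r = 0.755, rho = 0.783, permutation p = 0.00203, adjusted 0.0365). In the liver *Klf9* had r below 0 with 6 of the 7 other genes drawn, among them -0.547 with *Ddit4*, -0.362 with *Fkbp5* and -0.363 with *Tsc22d3*, and none of the 6 passed. *Mt1* and *Mt2* in the summed strand columns had r of 0.977 in kidney (adjusted permutation p = 0.0246), 0.985 in heart (0.00938) and 0.978 in liver (0.00938). Without the 2 farthest libraries of each relation 0 of 108 passed, but with at most 1152 arrangements left a lone relation could not reach an adjusted p under 0.0938, so that this count says nothing of stability. Then r stood at 0.921, 0.84, 0.844 and 0.855 for the 4 heart pairs in the order given.

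**Figure D5:**
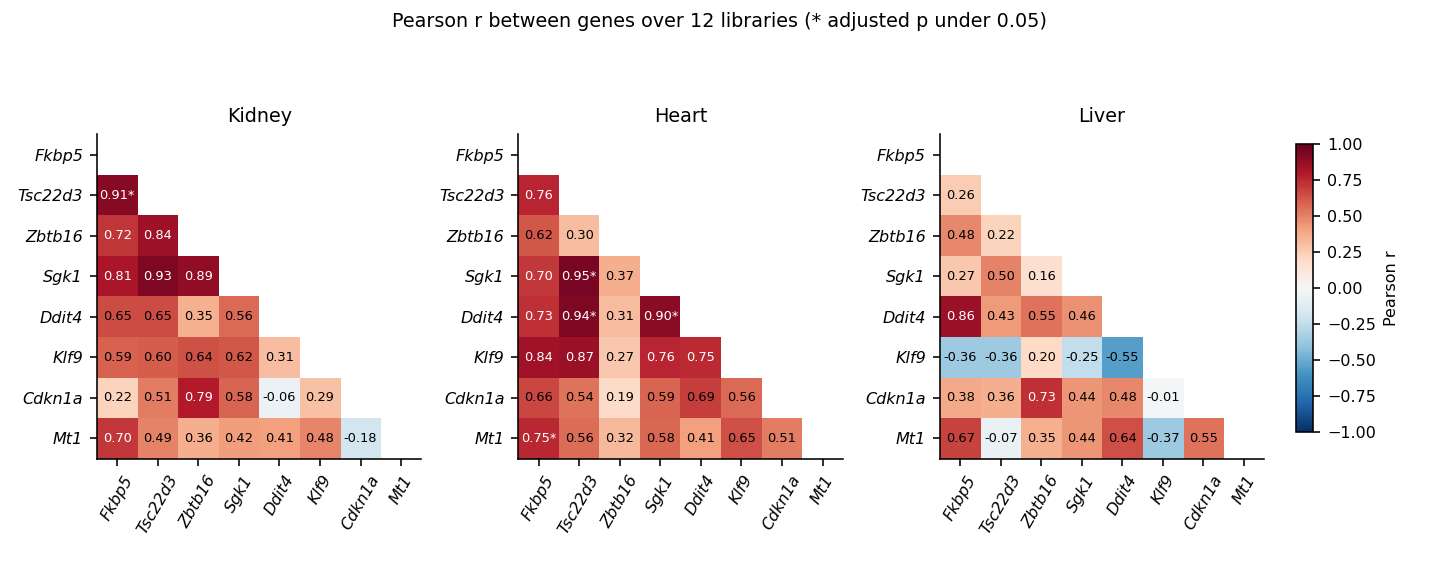
Pearson r between each pair of 8 genes in kidney, heart and liver, over 12 libraries, for deviations of log2 CPM from the age mean; colour gives r from -1 (blue) to 1 (red) and an asterisk an adjusted permutation p under 0.05. Kidney and heart are almost all red, with r of 0.908 for *Fkbp5* and *Tsc22d3* in kidney, while *Klf9* is blue with 6 of the other 7 genes in liver.

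Across the 12 libraries of a tissue, ages included, the genes whose log2 CPM followed *Fkbp5* most closely were *Osbpl9* (r = 0.928), *Ptpn1* (0.928) and *Gne* (0.924) among 10872 kidney genes with a mean of at least 5 CPM. In heart they were *Thbs2* (0.967), *Jph1* (0.938) and *Mxd4* (0.935) among 9699, and in liver *Mphosph8* (0.945), *Nucks1* (0.936) and *Cdip1* (0.920) among 9068. The nearest member was *Tsc22d3* in kidney, at rank 148 (r = 0.75), *Mt1* in heart, at rank 187 (r = 0.77), and *Mt1* in liver, at rank 347 (r = 0.68). With ages included, many genes besides the members therefore followed *Fkbp5* more closely than the members did, and these correlations share libraries, depth and scaling. No ranking was made for deviations from the age mean. On those deviations r with *Fkbp5* was 0.908 for *Tsc22d3* in kidney, 0.755 for *Mt1* in heart and 0.674 for *Mt1* in liver.

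Of 35 other genes known to be induced by glucocorticoid, 34 could be tested in each tissue. In kidney at 10 against 8 weeks 1 fell, *Arrdc2*, an arrestin-domain gene (log2 fold change -1.34 ± 0.26, adjusted p = 0.03), and 0 rose, with 0.283% of all genes passing downward. At 12 against 8 weeks 0 passed in kidney, 14 of 34 having an unadjusted p under 0.05 (all genes 11.7%), and the median was -0.28 with 31 lower and 3 higher, beside a median of 0.0025 over all kidney genes. At 12 against 10 weeks *Zfp36*, which destabilises inflammatory mRNAs, fell in kidney (log2 fold change -0.59 ± 0.12, adjusted p = 0.0459), against 0.346% of all genes downward.

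In heart 7 of the 34 fell and 2 rose between 8 and 12 weeks, against 2.36% of all genes upward and the downward share given above, and the median was -0.22. *Irs2*, an adaptor of the insulin receptor, fell (log2 fold change -1.02 ± 0.13, adjusted p = 0.00148), and *Cebpd*, a transcription factor of acute responses (log2 fold change -0.97 ± 0.22, adjusted p = 0.0269). The others that fell were *Dusp1*, *Errfi1*, *Cebpb*, *Nfkbia* and *Rhob*, named because they were few. The 2 that rose both restrain the use of glucose or circulating fat, *Angptl4*, an inhibitor of lipoprotein lipase (log2 fold change 1.28 ± 0.32, adjusted p = 0.0343) and *Pdk4*, an inhibitor of pyruvate oxidation (log2 fold change 0.79 ± 0.16, adjusted p = 0.015). *Irs2* had fallen already at 10 weeks (log2 fold change -0.73 ± 0.13, adjusted p = 0.0151), the 1 gene of the 34 to pass there (all genes downward 0.304%). The heart marker *Myl2* rose (log2 fold change 0.41 ± 0.10, adjusted p = 0.0291) in the same comparison, and the hepatocyte marker *Ttr* (log2 fold change 3.27 ± 0.75, adjusted p = 0.0442) in heart at 10 against 8 weeks, and their part in these results was not tested. In liver 0 of 34 passed in any age comparison, with 8, 4 and 5 at an unadjusted p under 0.05 at 10 against 8, 12 against 8 and 12 against 10 weeks (all genes 14.3%, 15.1% and 14.1%) and medians of -0.068, -0.17 and 0.03.

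Of 15 genes that receive and handle the hormone, 14 passed between kidney and heart, 12 between kidney and liver and 15 between heart and liver, and at least 83.1% of all genes did so in each pair. The receptor gene *Nr3c1* had a median of 69.4 CPM in kidney (57.8 to 82), 80.7 in heart (67.4 to 94.2) and 99.4 in liver (85.8 to 135), and the mineralocorticoid receptor gene *Nr3c2* 15.8, 25.5 and 16.7 CPM. *Hsd11b2*, which inactivates the hormone, had a median of 106 CPM in kidney, 0.135 in heart and 0 in liver. *Hsd11b1*, which regenerates it, had 99.5, 16.7 and 583 CPM, and *H6pd*, which supplies its cofactor, 219, 45.2 and 652 CPM. *Serpina6*, the plasma carrier of corticosterone, had a median of 0 in kidney and heart and 206 CPM in liver. *Akr1d1*, a reductase that clears steroids, stood at 34.6, 0 and 260.4 CPM, and the receptor co-chaperone gene *Fkbp4* at 173, 346 and 153 CPM in kidney, heart and liver.

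Of these 15 genes, 14 were tested in kidney, where 2 rose at 10 against 8 weeks (all genes upward 0.646%), the chaperone genes *Hsp90aa1* (log2 fold change 0.52 ± 0.083, adjusted p = 0.0135) and *Stip1* (log2 fold change 0.39 ± 0.073, adjusted p = 0.0253). In the other 8 age comparisons of the 3 tissues 0 passed by edgeR, with between 0 and 8 at an unadjusted p under 0.05 (all genes between 11.7% and 23.4%). Of 9 genes of the aldosterone-sensitive nephron, among them the sodium channel subunits *Scnn1a*, *Scnn1b* and *Scnn1g*, 0 passed in any kidney comparison, with 4, 1 and 0 at an unadjusted p under 0.05 at 10 against 8, 12 against 8 and 12 against 10 weeks, where all kidney genes gave 16.5%, 11.7% and 16.4%.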

How the data were processed

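RNA-seq libraries of polyadenylated RNA from kidney, heart and liver at 8, 10 and 12 weeks were used, 4 biological replicates a group, grouped by their labels. The deposited files give counts of read pairs per gene, raw and not normalized: per the labels and methods, the authors checked reads with FastQC 0.11.9, trimmed them with cutadapt 4.2 and counted them with STAR 2.7.11b on GRCm39. The unstranded column was taken, since between 49.8% and 50.2% of strand-assigned pairs fell on the first strand in every library, and a pair overlapping 2 genes is then lost. No column lacked a sample. Symbols and positions came from GENCODE's GRCm39 annotation.

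Following the study's methods, a tissue's test took genes whose mean count reached 10 in some age group with 2 or more of its samples above 0. Counts were tested with edgeR 4.0.16 (TMM factors, 1 mean per age, glmQLFit and glmQLFTest) in R 4.3.3 in each tissue, and in a model of 9 group means over all 36 libraries for tissues and for differences between changes, which takes all libraries as independent. P-values were adjusted by Benjamini-Hochberg over all genes kept, and a call needs an adjusted p under 0.05. CPM values depend on depth, 21031599 to 33637390 pairs a library, and low counts carry more error. Deviations for correlations used log2 CPM with a prior count of 2 and all 13824 arrangements within ages (numpy 2.4.6). A sample is an organ of one animal, and no batch, date or time of day is given in the sources used here, so day of collection and age cannot be told apart. Alternatives were DESeq2 1.42.0, limma-voom (limma 3.58.1), RLE factors, other filters, 2 ages alone, a replicate block, first strand counts and leaving out each library. The summed strand columns, the omission of the 3 libraries numbered 1 and counts without scaling factors were added after seeing the data. The scripts were tested on counts drawn with known fold changes. Promoter windows and their letters are from RefSeq (GRCm38.p6), and all 16 were matched exactly once in GRCm39.

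The members, gene lists and tests were chosen with earlier results of these data known. All 9 members are named, and of other lists up to 2 genes a direction with the largest fold change among those that passed in a comparison, the level of hormone handling genes, and the 3 genes most like *Fkbp5* in each tissue. The other 5 hormone-induced and 2 immediate early genes that fell in heart were named after their values were seen.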

Additional observations from a re-analysis of the deposited data

Results flagged for a closer look

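In 12 of the 81 groups of 4 libraries, 1 member's highest or lowest library lay far from the other 3 by Dixon's test at the 95% level. Chance does so in about 1 in 20 groups that are independent and normally distributed. The 81 groups come from 36 libraries in which members varied together, so the count of 12 cannot be set against that rate. Of these 12 libraries 3 were replicate 1 at 8 weeks, 5 were replicate 2 at 10 weeks, 2 were replicate 4 at 8 weeks and 2 were replicate 1 at 12 weeks.

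In kidney, *Fkbp5* stood at 106 CPM in replicate 1 at 8 weeks against 200.2, 212 and 205 in the others. *Tsc22d3* stood at 103 CPM in kidney replicate 2 at 10 weeks, where the others lay between 53.4 and 61.8. *Mt1* stood at 92.0 CPM in that same kidney library, the others lying between 30.1 and 39.9. *Cdkn1a* stood at 5.69 CPM in kidney replicate 1 at 12 weeks, above 3.37 to 3.52.

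Heart replicate 1 at 8 weeks was low for *Tsc22d3*, at 147 CPM against 232 to 238, and for *Cdkn1a*, at 23.7 CPM against 43.1 to 44.0. In liver replicate 2 at 10 weeks, *Ddit4* stood at 65.2 CPM against 13.3 to 20.01, *Mt1* at 2835 CPM against 59.4 to 157, and *Mt2*, counted without strand, at 10.5 CPM. *Mt1* also stood at 1266 CPM in liver replicate 4 at 8 weeks against 318 to 473, and *Klf9* at 268 CPM in the same library against 202 to 208. *Cdkn1a* stood at 14.9 CPM in liver replicate 1 at 12 weeks against 2.45 to 3.48.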

How the results depend on the processing

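Calls on single members between ages lay near the threshold and changed with the tool. With DESeq2, 1 member passed in kidney at 10 against 8 weeks (0 by edgeR), 2 in kidney at 12 against 8 weeks (1 by edgeR), 1 in heart at 10 against 8 weeks (0), 3 in heart at 12 against 8 weeks (2), 1 in liver at 10 against 8 weeks (0), 2 in liver at 12 against 8 weeks (1) and 1 in liver at 12 against 10 weeks (0). Limma-voom, first strand counts and the summed strand columns each gave 1 in kidney at 10 against 8 weeks. With the 2 ages alone, kidney gave 1 at 10 against 8 weeks and 0 at 12 against 8, heart 1 at 10 against 8, and liver 0 at 12 against 8. With no filter, over all genes with a count above 0 in the libraries fitted, kidney gave 3 in each of the 3 comparisons. Heart then gave 6 at 10 against 8, 8 at 12 against 8 and 2 at 12 against 10, and liver 1, 3 and 2 in that order. Unfiltered comparisons of changes at 10 against 8 weeks gave 1, 2 and 3 for kidney against heart, kidney against liver and heart against liver, and 1 each at 12 against 8 weeks. The cause of these shifts was not tested. Shares of all genes passing were computed for the main edgeR fit alone, so the counts under other tools and settings have none beside them. Without scaling factors, a setting added after seeing the data, the sign reversed for *Fkbp5* (0.11) and *Klf9* (0.63) in kidney against liver, the construction of the setting shifting all genes of a tissue by the same amount. Counts between tissues moved under no setting by over 1.5 times. Without the 2 farthest libraries 2 relations between tissues passed in place of 8 and 0 within tissues in place of 6, a count that the few arrangements left (at most 1152) limit, and 10 passed within tissues with the summed strand columns.

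Leaving out 1 library at a time, members passing numbered 0 to 1 (10 against 8), 0 to 1 (12 against 8) and 0 to 0 (12 against 10) in kidney, 0 to 2, 0 to 4 and 0 to 0 in heart, and 0 to 0, 0 to 2 and 0 to 1 in liver. They numbered 7 to 8 for kidney against heart, 6 to 7 for kidney against liver, 7 to 8 for heart against liver, and 0 to 0 in all 6 comparisons of changes. Among members with an unadjusted p under 0.05 in a comparison, 1212 of the values without a library kept the call and direction, 35 lost a call and 13 gained one. Values that passed in neither case count as kept, so that these numbers do not measure the stability of the calls. Of 12 omissions each, the call was lost in 8 for *Ddit4* in kidney, 5 for *Ddit4* in heart, 6 for *Tsc22d3* in heart and 7 for *Sgk1* in liver, all at 12 against 8 weeks. Under the other settings 436 values kept the call and direction, 11 lost a call and 36 gained one. Other members gained 15 calls with no filter, 9 without a library and 9 under other settings.

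Labels do not say that a replicate number marks an animal, litter or day. With the replicate number as a block, 0 members passed in kidney at 12 against 8 weeks (adjusted p = 0.135 for *Ddit4*) and 0 in liver at 12 against 8 weeks (0.0782 for *Sgk1*), and 2 passed in heart. With the library number, shared by the 3 tissues, as a block, 0 members passed in the 6 comparisons of changes, with 11 at an unadjusted p under 0.05 in place of 6, and 8, 7 and 8 passed for kidney against heart, kidney against liver and heart against liver. *Mt2* without strand in kidney against heart (adjusted p = 0.0339) and *Tsc22d3* in heart against liver (0.0149) were gained. Same-numbered libraries of different ages correlated over 0.1 in at most 2 of 4 pairs in any comparison. Between tissues, deviations of all genes correlated best with the own number in 10 of 12 libraries for kidney and heart, 12 of 12 for kidney and liver and 7 of 12 for heart and liver, a hint from the data and not from the design, with 7, 8 and 5 pairs over 0.1.

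Low counts limit *Cdkn1a* in kidney and liver, pairs lost to the opposite strand limit *Mt2*, and CPM values cannot show a change shared by all genes of an organ.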

Other observations

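Immediate early genes, which react within minutes to stimuli and to handling of tissue, were also followed. In kidney *Egr1*, a zinc finger factor of this class, rose at 10 against 8 weeks (log2 fold change 2.06 ± 0.44, adjusted p = 0.0441), the 1 gene of 12 tested to pass (all genes upward 0.646%). At 12 against 10 weeks all 12 were lower in kidney and all 11 tested were lower in heart, with 9 and 6 at an unadjusted p under 0.05 and 0 passing by edgeR, where 16.4% of kidney and 11.7% of heart genes had such a p. In heart 4 of 11 fell between 8 and 12 weeks (all genes downward 2.21%). Among them were *Nr4a1*, an orphan nuclear receptor (log2 fold change -2.42 ± 0.33, adjusted p = 0.0016), and *Atf3*, a stress factor (log2 fold change -1.06 ± 0.26, adjusted p = 0.031). The other 2 were *Ier3* and *Dusp1*, the latter also held in the list of hormone-induced genes. In liver 0 passed, with 4, 3 and 2 at an unadjusted p under 0.05 at 10 against 8, 12 against 8 and 12 against 10 weeks, beside 14.3%, 15.1% and 14.1% of all liver genes.

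Of 16 clock genes 0 passed by edgeR in any age comparison. At 10 against 8 weeks 10 in kidney, 10 in heart and 9 of 15 in liver had an unadjusted p under 0.05, where 16.5%, 15.8% and 14.3% of all genes of these tissues did. Medians there were -0.29 in kidney, -0.25 in heart and -0.23 in liver. Among genes of the metal response *Slc39a8*, a zinc and manganese importer, rose in heart at 10 against 8 weeks (log2 fold change 1.88 ± 0.34, adjusted p = 0.0151), where 0.76% of all genes passed upward. *Mtf1* and the others did not pass in any tissue. Of 12 p53 targets *Trp53inp1* fell in heart at 12 against 8 weeks (log2 fold change -0.83 ± 0.21, adjusted p = 0.0343), where 2.21% of all genes passed downward, and 0 passed in kidney or liver. *Aqp2*, the water channel of the collecting duct, was lower in kidney at 12 than at 10 weeks (log2 fold change -1.10 ± 0.19, adjusted p = 0.0239), and *Lrp2*, a tubule marker, was higher in heart at 10 than at 8 weeks (log2 fold change 4.10 ± 0.92, adjusted p = 0.0415).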
